A study of Homo sapiens with 12 samples.

Results

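The 10 genes described here encode the MYC, MAX and MXD network of transcription factors. They were chosen by symbol: MYC and MYCN, their partner MAX, the repressors MXD1, MXD3, MXD4, MXI1, MNT and MGA, and MLXIP. All 10 were found among the 27064 gene symbols that both count tables list. Poly(A) RNA was sequenced from NCI-H226 (H226), a mesothelioma line, and ACHN, a kidney cancer line. The submitters describe both lines as NF2-deficient. NF2 encodes merlin, which acts upstream of the Hippo kinases that hold back YAP and TAZ. The 4 groups were H226 in DMSO, H226 in 100 nM SWTX-143, ACHN in DMSO and ACHN in 100 nM SWTX-143, each exposed overnight and each with 3 libraries. SWTX-143 is an irreversible inhibitor of the TEAD proteins, the DNA-binding partners of YAP and TAZ. Both are established tumour lines. Separate cultures behind the 3 libraries of a group are not stated in the labels. The p-values therefore measure only the spread between these samples, and that spread may be technical.

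MYC proteins bind DNA only as dimers with MAX, at E-box sequences, and raise the transcription of genes for ribosome production, nucleotide synthesis and cell growth. MXD proteins, MXI1, MNT and MGA compete for the same partner and the same sites. The MXD proteins, MXI1 and MNT bring in the SIN3 histone deacetylase corepressor, and MGA is the DNA-binding scaffold of a Polycomb complex called PRC1.6. MLXIP, also named MondoA, pairs with MLX, a relative of MAX, and raises TXNIP and ARRDC4 when glucose phosphate builds up.

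Promoter sequence is shown for the members whose window held a motif of the network or of TEAD, because those letters are what the factors read. RefSeq promoter windows (build GRCh38.p14, 250 bases before to 50 bases after a start) were matched by symbol for 9 of the 10 genes, which together had 14 windows; MYC had no match. The E-box searched was CACGTG, which reads the same on both strands, and the TEAD core was GGAATG, or CATTCC on the other strand. The E-box stood in 2 of the 14 windows, against 7.26% of 35116 windows of all genes, and the TEAD core in 2 of the 14, against 14.03%. No window of a member held both. Each line below is written 5′ to 3′ along the gene's own strand, cut to the 20 bases on each side of the motif where the window reaches that far, with the motif in capitals.
MXD4: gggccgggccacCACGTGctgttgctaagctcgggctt
MNT: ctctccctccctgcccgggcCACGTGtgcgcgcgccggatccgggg
MXI1: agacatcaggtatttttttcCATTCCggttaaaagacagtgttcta
MGA: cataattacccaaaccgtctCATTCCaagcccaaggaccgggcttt
The MXD4 stretch is chr4:2262322-2262359 on the minus strand, with the E-box beginning 238 bases before the start, and the MNT stretch is chr17:2401228-2401273 on the minus strand, with it 193 bases before. The MXI1 stretch is chr10:110207384-110207429 and the MGA stretch is chr15:41621080-41621125, both on the plus strand, with the TEAD core 201 and 124 bases before the start. MXI1 and MGA each had further windows, at other starts, without the core. These matches are descriptions of letters and no binding was measured.

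Library totals ran from 9690980 to 11262663 counts. Levels are given as CPM, counts scaled to library size with TMM factors, and intervals after ± are SD over 3 libraries for levels and SE for log2 fold changes. A gene is called, and written as risen or fallen, when its adjusted p from edgeR's quasi-likelihood test was under 0.05 over all genes tested. The known YAP and TAZ targets CTGF (log2 fold change -2.53 ± 0.08 in H226 and -2.39 ± 0.06 in ACHN) and CYR61 (-1.41 ± 0.04 and -1.28 ± 0.04) fell in both lines. NF2 had no count in H226 under DMSO and 112 ± 0.294 CPM in ACHN under DMSO, so the RNA itself was missing in only one of these lines. Summed mesothelial markers stood at 4028 to 4852 CPM in H226 and at 190 to 227 CPM in ACHN, and summed kidney epithelial markers at 181 to 193 and 728 to 805 CPM. Not all kidney markers were lower in H226: of 9 tested under DMSO, 6 were lower and 3 higher there. The H226 kidney sum was mostly CDH6 (122 CPM under DMSO, against 0.211 in ACHN) and MME (52.4 against 0). In H226 the mesothelial sum was 4028 to 4205 CPM under DMSO and 4566 to 4852 CPM under SWTX-143, and in ACHN it was 225 to 227 CPM and then 190 to 197 CPM. Most of the ACHN mesothelial sum was LRRN4, at 177 ± 0.386 and then 149 ± 4.01 CPM. Blood cell markers summed to at most 3.84 CPM in any library. Endothelial markers summed to 150 to 229 CPM in H226, where KDR made up nearly all of it. KDR stood at 224 ± 5.85 CPM under DMSO and 157 ± 7.54 CPM under SWTX-143. The part of these marker shifts in the results below was not tested. In such bulk RNA, fewer cells of a kind and less RNA per cell cannot be told apart. One library, H226 SWTX-143 replicate 3, differed most from its fellows: its count differences from replicates 1 and 2 had a chi-square per degree of freedom of 3.12 and 3.42, against 1.36 to 2.88 for the other pairs.

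In H226 under SWTX-143, MYC fell, the repressors MXD4 and MXI1 rose, and a small fall was called for the repressor MXD3. The 4 called members of 10 tested stood against 40.7% of all 13484 genes tested, so the share of members called was near the background. The median log2 fold change was 0.05 over the members and -0.00 over all genes. Among members, 2 fell against a background of 21.6% of genes lower, and 2 rose against 19% higher. In ACHN, MXD4 rose again and MLXIP rose, and MYC was not called. There, 2 of 9 members tested were called, against 17.8% of 13483 genes. Both rose, against 8.43% of genes higher, and none fell, against 9.37% lower; MXD3 was lower at an unadjusted p of 0.0389, and DESeq2 called no fall either. The ACHN median was 0.07 over members and 0.00 over all genes.

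**Figure D1:**
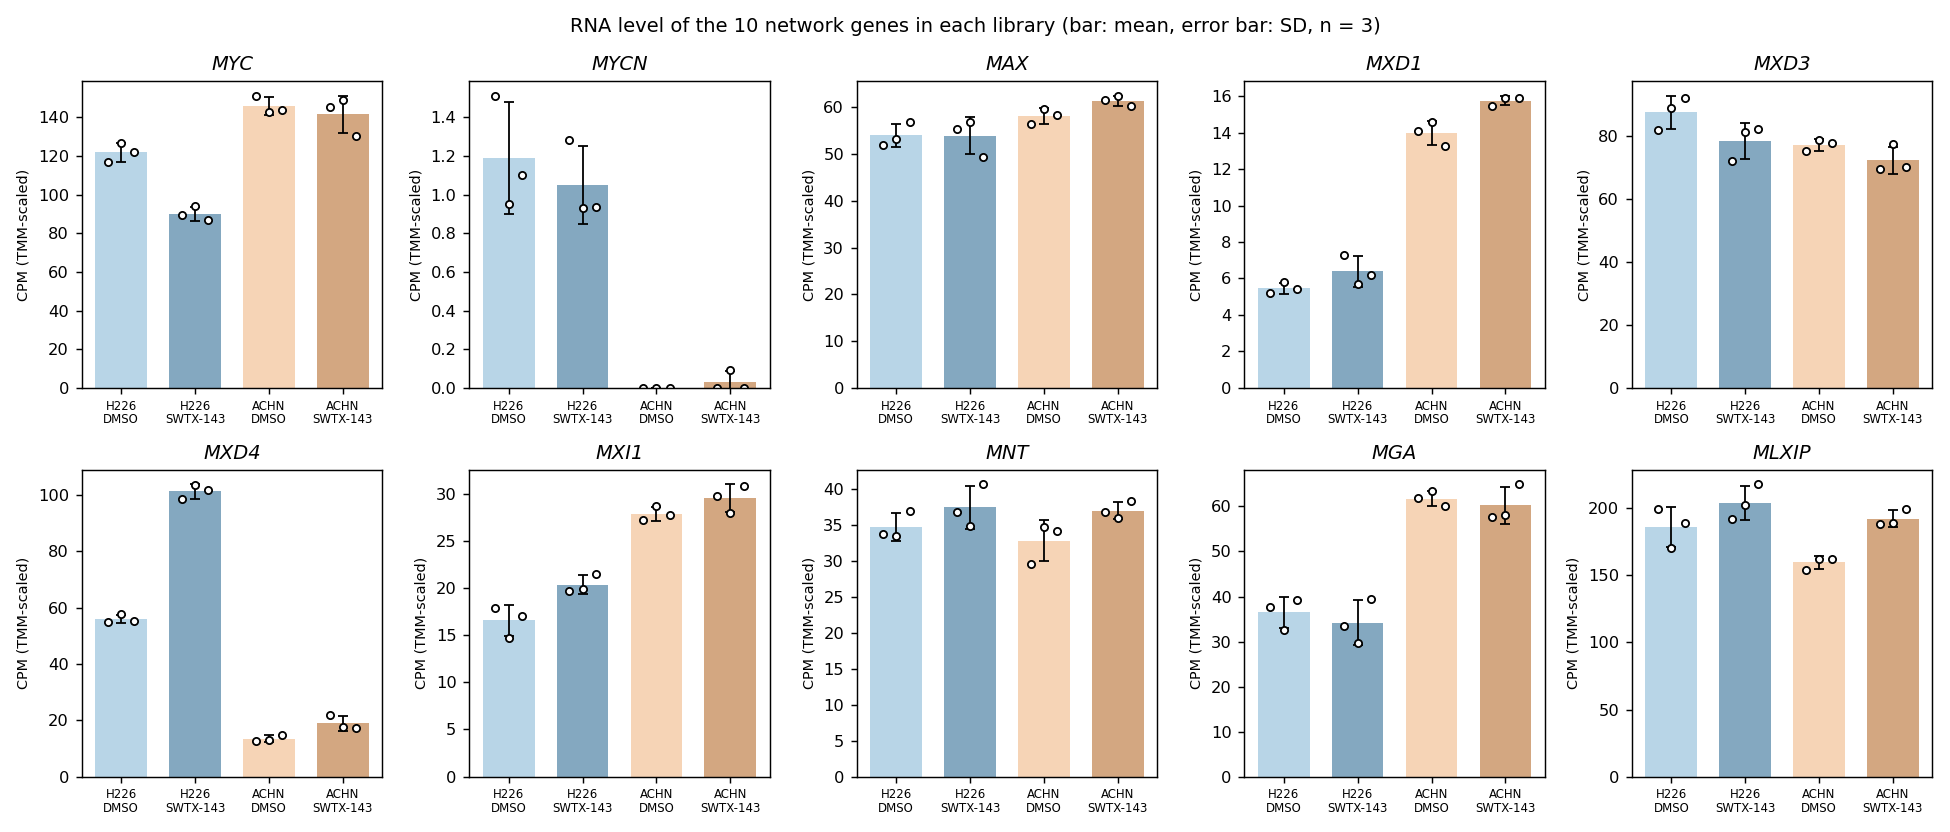
Level of each network gene in CPM (TMM-scaled) in each of 12 libraries, 1 panel per gene, with its own vertical axis from 0. Bars are group means, error bars SD and points single libraries; MYC in the 3 treated H226 libraries lies at 86.9 to 94.0 CPM, under all 3 DMSO libraries, and MXD4 lies higher under SWTX-143 in both lines and higher in H226 than in ACHN.

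MYC, the activator that most dividing cells express, was at 117, 127 and 122 CPM in the H226 DMSO libraries and at 89.3, 94.0 and 86.9 CPM under SWTX-143. The treated H226 libraries all lay below the controls. The fall was 1.36-fold, a log2 fold change of -0.45 ± 0.05 (edgeR quasi-likelihood test, adjusted p = 1.52e-10). In order of p, MYC was gene 564 of those tested in H226. The absolute size exceeded 0.35, the median absolute log2 fold change of all genes called in that line. In ACHN, MYC was at 151, 142.5 and 144 CPM under DMSO and at 145, 149 and 131 CPM under SWTX-143. The ACHN groups overlapped, with replicate 3 of the treated libraries the lowest. The ACHN log2 fold change was -0.06 ± 0.04, with a 95% interval from -0.15 to 0.03 (edgeR, adjusted p = 0.408).

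The MYC response differed between the lines. The H226 effect minus the ACHN effect was -0.39 ± 0.07 on the log2 scale (edgeR interaction contrast over 12 libraries, adjusted p = 8.72e-06). In this contrast 2 of 10 members were called, MYC lower and MXD4 higher, against 15.6% of 14664 genes tested (9.7% lower and 5.89% higher). The members' median difference was -0.06, beside -0.01 over all genes. The MYC call held under all 18 alternative settings and left-out libraries, with an adjusted p of at most 0.000928.

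MYCN, the neural and embryonic relative of MYC, was nearly silent. H226 held 16, 10 and 10 MYCN counts under DMSO and 13, 10 and 10 under SWTX-143. ACHN held 0 in all DMSO libraries, and 0, 1 and 0 under SWTX-143. The H226 groups overlapped, with a log2 fold change of -0.20 ± 0.35 and a 95% interval from -0.89 to 0.50 (edgeR, adjusted p = 0.693). In ACHN MYCN did not pass the low-count filter. Under DMSO the pooled H226 level of 1.19 CPM was 13.2-fold the 0.0904 CPM that 3 pooled counts would give in ACHN, and the counting interval of the ratio of 36 to 0 counts began at 10.2. Under SWTX-143, 33 pooled counts against 1 gave a ratio of 35.5, with a counting interval from 5.94 to 1443.04. MYCN shares 98 exon bases with the antisense gene MYCNOS, which was at 1.15 ± 0.139 CPM in H226 under DMSO and at 0 in ACHN. The strand setting of the counts is not known, so reads of this pair cannot be assigned to one of them. MYCL, the third gene of the MYC family, rose in H226 from 2.90 ± 0.240 to 5.02 ± 0.440 CPM, a log2 fold change of 0.77 ± 0.19 (edgeR, adjusted p = 0.000911). In ACHN MYCL was at 0.631 ± 0.229 and 0.323 ± 0.0361 CPM and was not tested there. The MYCL effect in H226 minus that in ACHN was 1.72 ± 0.55 (edgeR, adjusted p = 0.0210); DESeq2's low-count filter left it without an adjusted p. This MYCL call was lost without ACHN DMSO replicate 2 (edgeR adjusted p = 0.0823), ACHN DMSO replicate 3 (0.106) or ACHN SWTX-143 replicate 2 (0.0559).

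MAX, the obligate partner of both sides of the network, did not pass the test in either line. In H226 it was at 51.9, 53.3 and 56.8 CPM under DMSO and at 55.4, 56.8 and 49.4 CPM under SWTX-143. The groups overlapped, and the log2 fold change was -0.01 ± 0.06 with a 95% interval from -0.13 to 0.11 (edgeR, adjusted p = 0.906). In ACHN the values were 56.4, 59.7 and 58.4 CPM and then 61.5, 62.5 and 60.4 CPM. All treated ACHN libraries lay above the controls, by a log2 fold change of 0.06 ± 0.06 with a 95% interval from -0.04 to 0.17 (edgeR, adjusted p = 0.491).

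MXD4, a MAX-binding repressor found in resting and differentiating cells, moved more than any other member. In H226 it was at 55.05, 57.7 and 55.4 CPM under DMSO and at 98.4, 103 and 102 CPM under SWTX-143. The groups were far apart, and the rise was 1.79-fold, a log2 fold change of 0.84 ± 0.05 (edgeR, adjusted p = 1.90e-19). MXD4 was gene 81 by p in that line. In ACHN it was at 12.6, 12.8 and 14.8 CPM under DMSO and at 22.0, 17.5 and 17.2 CPM under SWTX-143. Replicate 1 of the treated ACHN libraries was the highest, and all 3 lay above the controls. The ACHN rise was 1.39-fold, 0.48 ± 0.10 on the log2 scale (edgeR, adjusted p = 0.00039). The MXD4 call held in each line under all 12 alternatives, with an adjusted p of at most 0.0237 in ACHN. The rise was larger in H226 by 0.36 ± 0.11 (edgeR interaction contrast, adjusted p = 0.0174). That call was lost without ACHN DMSO replicate 3 (adjusted p = 0.142), ACHN SWTX-143 replicate 2 (0.0699) or ACHN SWTX-143 replicate 3 (0.0800), with differences of 0.28, 0.31 and 0.30.

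MXI1, a SIN3-binding repressor from the same family, was at 17.9, 14.8 and 17.1 CPM in H226 under DMSO and at 19.7, 19.9 and 21.6 CPM under SWTX-143. The treated libraries lay above the controls, of which replicate 2 was the lowest. The rise was 1.22-fold, 0.29 ± 0.10 on the log2 scale (edgeR, adjusted p = 0.0122). It was not called by DESeq2 (adjusted p = 0.0961) or without H226 DMSO replicate 2 (log2 fold change 0.21, edgeR adjusted p = 0.127). In ACHN, MXI1 was at 27.2, 28.7 and 27.8 CPM and then at 29.8, 27.9 and 30.9 CPM. Those groups overlapped, with a log2 fold change of 0.07 ± 0.07 and a 95% interval from -0.08 to 0.21 (edgeR, adjusted p = 0.595). The difference between lines, 0.21 ± 0.12, was not called (edgeR, adjusted p = 0.248).

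MXD3, the family member tied to S phase in proliferating cells, was at 81.7, 88.7 and 91.9 CPM in H226 under DMSO and at 71.8, 81.1 and 81.9 CPM under SWTX-143. The groups overlapped slightly. The log2 fold change of -0.17 ± 0.06 was called (edgeR, adjusted p = 0.0153), and the call was lost in 6 of 12 alternatives, among them DESeq2 (adjusted p = 0.0936). The others were upper-quartile scaling (0.0924), library size alone (0.0721) and the fits without H226 DMSO replicate 2 (0.0510), DMSO replicate 3 (0.118) or SWTX-143 replicate 1 (0.175). In ACHN, MXD3 was at 75.0, 78.6 and 77.5 CPM and then at 69.3, 77.2 and 70.0 CPM, a log2 fold change of -0.11 ± 0.05 (edgeR, adjusted p = 0.145). MXD3 exons overlap 1158 bases of PRELID1 on the opposite strand and 926 bases of RAB24 on the same strand. In H226 PRELID1, a mitochondrial lipid transfer protein gene at 202 ± 6.59 CPM, fell by 0.24 ± 0.04 (edgeR, adjusted p = 1.13e-05), and RAB24 rose by 0.53 ± 0.10 (adjusted p = 2.59e-05). Reads in the shared bases cannot be told apart, so the MXD3 value is uncertain.

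MXD1, the founding MAX dimerization repressor, had few counts. In H226 it was at 5.19, 5.81 and 5.40 CPM under DMSO and at 7.31, 5.67 and 6.19 CPM under SWTX-143, from 49 to 74 counts a library. The groups overlapped, with a log2 fold change of 0.21 ± 0.16 and a 95% interval from -0.10 to 0.52 (edgeR, adjusted p = 0.297). In ACHN it was at 14.1, 14.6 and 13.3 CPM and then at 15.5, 15.9 and 15.9 CPM. The treated ACHN libraries all lay above the controls, and the log2 fold change of 0.16 ± 0.10 did not pass the test (edgeR, adjusted p = 0.303). MXD1 shares 237 exon bases with SNRNP27, which was at 44.8 ± 2.21 CPM in H226 under DMSO, so some MXD1 counts could be reads of that gene.

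MNT, the broadly expressed repressor that shares MAX with MYC in dividing cells, was at 33.7, 33.4 and 36.9 CPM in H226 under DMSO and at 36.8, 34.8 and 40.6 CPM under SWTX-143. The groups overlapped, and the log2 fold change was 0.10 ± 0.07 (edgeR, adjusted p = 0.268). In ACHN it was at 29.5, 34.7 and 34.0 CPM and then at 36.7, 35.8 and 38.2 CPM. The treated ACHN libraries lay above the controls, of which replicate 1 was the lowest. The ACHN log2 fold change was 0.16 ± 0.07, with a 95% interval from 0.02 to 0.30 and an adjusted p of 0.118 by edgeR.

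MGA, the Polycomb-linked MAX partner, was at 37.7, 32.6 and 39.2 CPM in H226 under DMSO and at 33.4, 29.6 and 39.5 CPM under SWTX-143. The groups overlapped fully, and replicate 3 was the highest of each. The log2 fold change was -0.10 ± 0.10 (edgeR, adjusted p = 0.449), and without H226 SWTX-143 replicate 3 it was -0.22 ± 0.08 and was called (adjusted p = 0.0201). MGA has a very long transcript, 14439 bases at its longest. For the 234 genes with a transcript above 12000 bases, each library was set against its own group's mean, which removes any treatment shift. The median deviation was 0.13 (log2) in H226 SWTX-143 replicate 3, against -0.04 and -0.09 in treated replicates 1 and 2. The same medians were 0.08, -0.08 and 0.01 in the H226 DMSO libraries and between -0.04 and 0.02 in ACHN. The part of this in the MGA value was not tested. In ACHN, MGA was at 61.8, 63.4 and 60.0 CPM and then at 57.7, 58.1 and 64.9 CPM, a log2 fold change of -0.05 ± 0.06 (edgeR, adjusted p = 0.615).

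MLXIP (MondoA), the glucose-sensing member, was at 154, 162 and 163 CPM in ACHN under DMSO and at 189, 189 and 199 CPM under SWTX-143. All treated libraries lay above the controls, and the rise was 1.19-fold, 0.25 ± 0.04 on the log2 scale (edgeR, adjusted p = 3.33e-06). In H226 it was at 199, 170 and 189 CPM and then at 192, 202 and 218 CPM. The H226 groups overlapped, with DMSO replicate 1 inside the treated range. The H226 log2 fold change of 0.12 ± 0.05 was not called (edgeR, adjusted p = 0.0744), and it was called in 6 of 12 alternatives. The difference between lines, -0.14 ± 0.07, did not pass (edgeR, adjusted p = 0.183), so the response of MLXIP was not shown to be particular to ACHN.

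**Figure D2:**
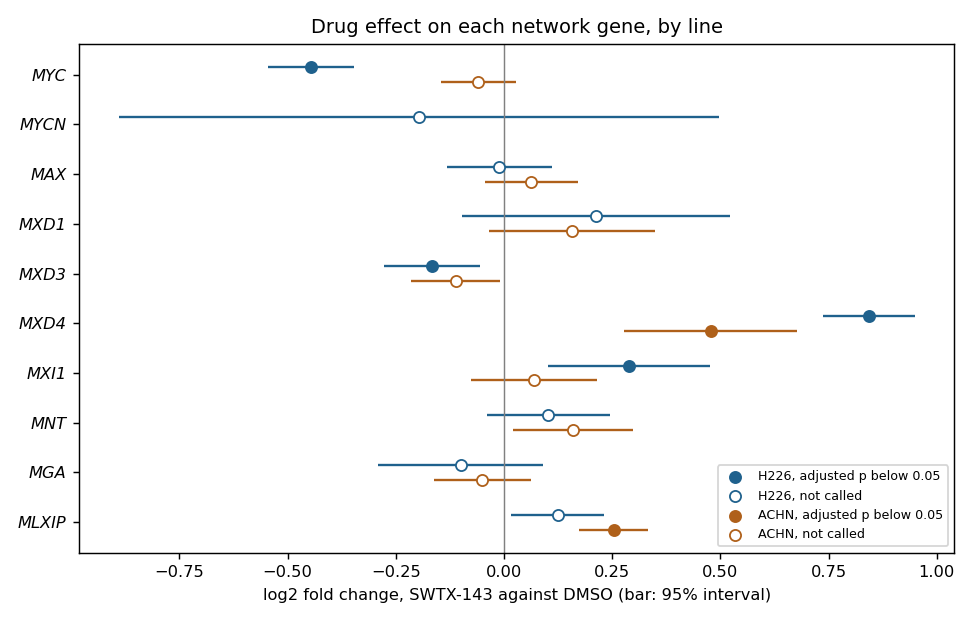
Log2 fold change of each network gene, SWTX-143 against DMSO, in H226 (blue) and ACHN (brown), with bars for the 95% interval; filled points had an adjusted p under 0.05. MYC in H226 lies at -0.45 and in ACHN at -0.06, MXD4 lies to the right in both lines, and MYCN has no ACHN point because it did not pass the low-count filter.

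The lines differed in most members before any drug. Under DMSO, 8 of 10 members differed between H226 and ACHN, against 84.4% of 14664 genes tested, a share close to the background; 4 were lower and 4 higher in H226, beside 42.2% of genes in each direction. MXD4 was 4.16-fold higher in H226 (log2 difference 2.06 ± 0.08, edgeR adjusted p = 9.84e-40). MXD1 was lower in H226 by a log2 difference of -1.35 ± 0.13 (adjusted p = 3.12e-16), MXI1 by -0.75 ± 0.09 (8.35e-13), MGA by -0.76 ± 0.07 (2.91e-13) and MYC by -0.26 ± 0.05 (1.27e-06). MXD3 (0.18 ± 0.05) and MLXIP (0.22 ± 0.05) were slightly higher in H226; with library size alone as scaling, which moves the median of all genes by -0.16, these were 0.02 and 0.06 and neither was called. MAX and MNT were not called, at -0.11 ± 0.06 and 0.08 ± 0.07 (edgeR, adjusted p = 0.0809 and 0.312). MAX was called lower with upper-quartile scaling (-0.12, adjusted p = 0.0480) and with library size alone (-0.27, 3.00e-05). Under SWTX-143 the gap in MYC was -0.65 ± 0.05 and MXD4 was 5.34-fold higher in H226 (2.42 ± 0.07). There, 8 of 10 members differed, against 85.2% of genes, 5 lower and 3 higher in H226 beside 43.5% and 41.7% of genes, with MAX lower in H226 by -0.19 ± 0.06 and MLXIP uncalled. The MAX call was lost without H226 SWTX-143 replicate 3 (-0.08 ± 0.06, adjusted p = 0.251). MLXIP under SWTX-143 was called higher in H226 in 9 of 18 alternatives. MXD3, called higher there (0.12 ± 0.06), was not called with DESeq2 (adjusted p = 0.0662), with library size alone (-0.02, 0.721) or by edgeR without ACHN SWTX-143 replicate 1 (0.175) or replicate 3 (0.143). The 2 line contrasts and the drug contrasts share libraries, and a line's tissue, genotype and handling cannot be told apart here.

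Levels of different genes were compared only per length, as CPM per kilobase of merged exons (GENCODE 29). MYC was the highest member in every group, at 40.6 ± 1.62 CPM per kilobase in H226 and 48.6 ± 1.55 in ACHN under DMSO. In H226 under DMSO the order below MYC was MXD3 (16.96 ± 1.01), MLXIP (13.4 ± 1.07), MAX (12.2 ± 0.571), MXD4 (7.94 ± 0.203), MNT (3.97 ± 0.221), MXI1 (3.60 ± 0.357), MGA (2.07 ± 0.197), MXD1 (0.861 ± 0.0492) and MYCN (0.457 ± 0.111). The library ranges of MLXIP and MAX overlapped, as did those of MNT and MXI1; the other neighbours were separate. Under SWTX-143 MXD4 reached 14.3 ± 0.358 CPM per kilobase, a range that overlapped that of MLXIP (14.7 ± 0.925), which in turn overlapped MXD3 (15.2 ± 1.09), and MXD4 stood above MAX (12.2 ± 0.894). MXI1 (4.42 ± 0.223) and MNT (4.28 ± 0.337) overlapped, with MGA (1.94 ± 0.285), MXD1 (1.01 ± 0.132) and MYCN (0.404 ± 0.0779) below, and MYC was at 30.0 ± 1.21.

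In ACHN under DMSO the order was MYC, MXD3 (14.9 ± 0.352), MAX (13.1 ± 0.370), MLXIP (11.5 ± 0.363), MXI1 (6.06 ± 0.167), MNT (3.75 ± 0.323), MGA (3.50 ± 0.0970), MXD1 (2.204 ± 0.105), MXD4 (1.90 ± 0.173) and MYCN at 0. MNT overlapped MGA and MXD1 overlapped MXD4. Under SWTX-143, MYC was at 47.2 ± 3.23 CPM per kilobase, and MXD3 (14.0 ± 0.843), MAX (13.9 ± 0.239) and MLXIP (13.8 ± 0.452) overlapped in a row. MXD4 (2.68 ± 0.375) and MXD1 (2.48 ± 0.0420) overlapped too. MXI1 (6.41 ± 0.323), MNT (4.23 ± 0.138) and MGA (3.41 ± 0.230) kept to separate ranges between them. MXD3 ranked as the highest repressor per length in all 4 groups, with the uncertainty from PRELID1 given above, and in treated H226 its library range overlapped that of MXD4. These orders and overlaps rest on merged exons. With the longest transcript, MLXIP (18.9 ± 0.599) stood above MAX (18.4 ± 0.520) in ACHN under DMSO, and also under SWTX-143. MXD4 then stood above MXD1 in ACHN under DMSO and above MGA in treated ACHN, and MNT above MXI1 in treated H226.

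Setting the activators against the repressors, the summed level of MYC and MYCN was divided by that of MXD1, MXD3, MXD4, MXI1, MNT and MGA, all per kilobase. In H226 this log2 balance was 0.20, 0.28 and 0.16 under DMSO and -0.38, -0.38 and -0.55 under SWTX-143. The H226 mean ratio was 1.16 ± 0.0463 under DMSO and 0.740 ± 0.0487 under SWTX-143, and the groups were far apart. Activator RNA went from 41.1 ± 1.51 to 30.4 ± 1.20 CPM per kilobase and repressor RNA from 35.4 ± 1.18 to 41.2 ± 1.73. Of the repressors, MXD4 changed most, from 7.94 ± 0.203 to 14.3 ± 0.358. MXD3, the largest part of the DMSO sum and uncertain as given above, went from 16.96 ± 1.01 to 15.2 ± 1.09. The means of MXI1, MNT and MXD1 were higher under SWTX-143 and that of MGA was lower, each by less than the MXD4 change. In ACHN the log2 balance was 0.68, 0.52 and 0.56 under DMSO and 0.56, 0.57 and 0.39 under SWTX-143, and these groups overlapped. The ACHN mean ratio was 1.504 ± 0.0912 and then 1.42 ± 0.0990. SWTX-143 minus DMSO, the mean log2 balance differed by -0.65 in H226 and by -0.08 in ACHN. No test was made of this sum, whose genes were chosen for it. Its sign rests on the length used: with the longest transcript of each gene in place of merged exons, H226 under DMSO was at -0.36, while the H226 difference between treatments was -0.60.

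**Figure D3:**
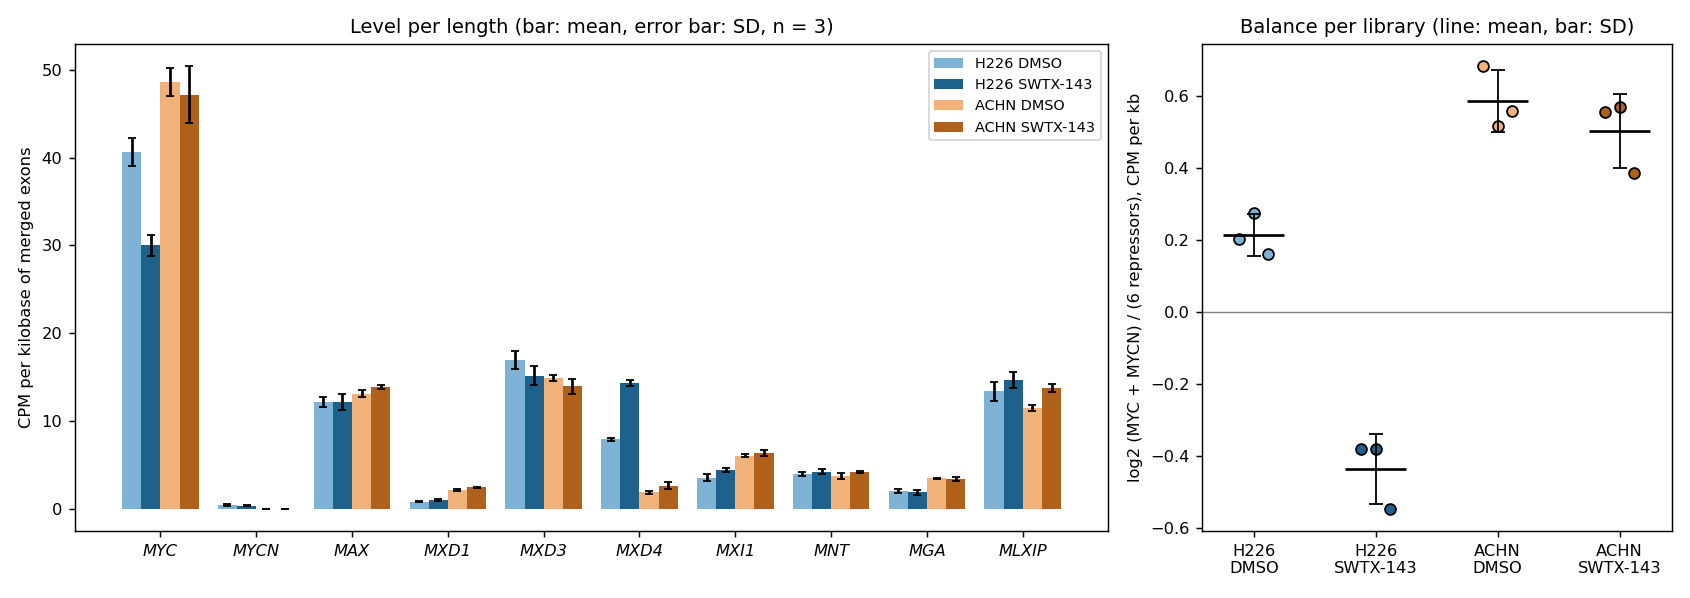
Left, level of each network gene in CPM per kilobase of merged exons, by group (bars are means and error bars SD of 3 libraries). Right, log2 ratio of MYC plus MYCN to the 6 repressors in each library, with group mean and SD; the 3 treated H226 libraries lie below 0, between -0.55 and -0.38, and all other libraries above 0.

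Across the 12 libraries, centred within each line, the member that ran most against MYC was MXI1 (Pearson r = -0.91, n = 12 libraries), followed by MXD4 (r = -0.81). MXD4 and MXI1 ran together (r = 0.76). These correlations include the step between treatments, which the libraries share, and are descriptions. Among 10047 genes with at least 5 CPM in both lines, the genes most like MYC were DHX37, a ribosome assembly helicase (r = 0.981), EIF5A, a translation factor (r = 0.980), and EMP1, a membrane protein (r = 0.978). Those most like MXD4 were the junction protein gene JUP (r = 0.982), STMN3 (r = 0.978) and the collagen gene COL6A2 (r = 0.976). MXI1 was most like PYROXD2 (r = 0.963), FRMD4A (r = 0.959) and the histone methyltransferase gene EHMT2 (r = 0.951), and MXD1 was most like ZNF2 (r = 0.952), WDFY1 (r = 0.945) and SERPINB6 (r = 0.919). MXD1 itself was not called in either line and had only 49 to 74 counts a library in H226. The log2 fold changes of its 3 matches were also small, 0.07 to 0.29 in H226 and 0.08 to 0.23 in ACHN.

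Genes that MYC is known to activate were mostly lower with drug. Of 40 listed, 38 were tested in H226, and 35 fell and 2 rose, with a median log2 fold change of -0.36 beside -0.00 for all genes and 21.6% of all genes lower. NOLC1, a nucleolar assembly factor, went from 269 ± 7.94 to 160 ± 4.64 CPM (-0.76 ± 0.04, edgeR adjusted p = 2.05e-21). DKC1, the pseudouridine synthase of ribosomal RNA and telomerase, went from 194 ± 10.03 to 114 ± 3.23 CPM (-0.78 ± 0.05). SRM, spermidine synthase, fell by 0.70 ± 0.05 and PA2G4, a growth-linked RNA-binding protein, fell by 0.57 ± 0.04. The exceptions that rose were the cyclin CCND2 (0.17 ± 0.06) and the transferrin receptor TFRC (0.10 ± 0.04). The TFRC call in H226 was lost with no low-count filter (edgeR adjusted p = 0.050009) and without H226 DMSO replicate 3 (0.131), SWTX-143 replicate 1 (0.142) or SWTX-143 replicate 2 (0.0787). In ACHN 39 were tested, of which 19 fell and 2 rose, with a median of -0.14 beside 9.37% of all genes lower. There the helicase DDX18 (-0.42 ± 0.04), TFRC (-0.37 ± 0.04), NOLC1 (-0.23 ± 0.04) and nucleolin, NCL (-0.20 ± 0.03), had the smallest p, and UBTF (0.19 ± 0.04) and LDHA (0.12 ± 0.03) rose. The difference contrast called 25 of 39 lower in H226 and 1 higher, TFRC (0.46 ± 0.06), beside 9.7% and 5.89% of all genes. EIF4A1 was listed at 0 counts in every library. MYC itself was not called in ACHN, where these 19 genes fell.

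Genes that MYC is known to repress were called in both directions. In H226, 7 of 12 tested rose and 4 fell (median 0.14), beside 19% and 21.6% of all genes. The ferritin heavy chain FTH1 rose from 1455 ± 57.9 to 1813 ± 111 CPM (0.31 ± 0.04) and CDKN2B, which encodes the cell cycle inhibitor p15, from 48.4 ± 2.72 to 64.6 ± 2.16 CPM (0.41 ± 0.06). The matrix protein gene THBS1 (-2.11 ± 0.15) and the stress gene GADD45A (-0.61 ± 0.06) fell. In ACHN 2 of 12 rose and 4 fell (median -0.07), beside 8.43% and 9.37% of all genes. Those that fell included THBS1 (-1.17 ± 0.06), which went from 2433 ± 154 to 1096 ± 91.9 CPM, and CDKN1B (-0.22 ± 0.05). FTH1 (0.19 ± 0.03) and CLU (0.19 ± 0.04) were the 2 that rose. CDKN2B differed between lines by 0.68 ± 0.12 (edgeR interaction contrast, adjusted p = 7.58e-06).

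Among genes listed as MYC cofactors or MYC-binding proteins, 6 of 14 tested in H226 fell and 1 rose (median -0.16), beside 21.6% and 19% of all genes. The ATPases RUVBL2 (-0.36 ± 0.05) and RUVBL1 (-0.25 ± 0.05), the arginine methyltransferase PRMT5 (-0.31 ± 0.05) and the histone-binding WDR5 (-0.31 ± 0.05) had the smallest p. In ACHN 4 of 14 fell (median -0.09), beside 9.37% of all genes: EP400 (-0.22 ± 0.04), TRRAP (-0.18 ± 0.04), BIN1 (-0.17 ± 0.05) and HCFC1 (-0.12 ± 0.04). The ACHN count was 2 with DESeq2 and without ACHN DMSO replicate 2 or SWTX-143 replicate 3, where BIN1 (DESeq2 adjusted p = 0.0608, edgeR 0.0683 and 0.0907) and HCFC1 were not called. HCFC1 lost its call in 9 of 12 alternatives, and TRRAP lost it without ACHN DMSO replicate 3 (adjusted p = 0.0515). Without H226 SWTX-143 replicate 3, EP400 (-0.37) and TRRAP (-0.28) were called lower in H226 too. BIN1, a MYC-binding tumour suppressor, rose in H226 (0.31 ± 0.10). That call was lost with DESeq2 (adjusted p = 0.0964) and by edgeR without H226 DMSO replicate 1 (0.050002), DMSO replicate 3 (0.0548) or SWTX-143 replicate 1 (0.105). The difference in BIN1 between lines was called (0.48 ± 0.11, edgeR adjusted p = 0.000900), also in all 18 alternatives. PRMT5, RUVBL1 and TRRAP share exon bases with antisense or neighbouring genes and are uncertain in these counts.

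Of 14 genes whose products control MYC protein turnover, 6 fell in H226 and 3 in ACHN, and none rose in either by edgeR (medians -0.11 and -0.06). Of all genes, 21.6% fell and 19% rose in H226, and 9.37% and 8.43% in ACHN. USP28, which counters FBXW7, was higher in ACHN at an unadjusted p of 0.0326 (0.14 ± 0.06). SKP2, the F-box subunit of a ubiquitin ligase that acts on MYC and on p27, went from 462 ± 16.2 to 166 ± 4.65 CPM in H226, a log2 fold change of -1.49 ± 0.04 (edgeR, adjusted p = 5.24e-35). In ACHN SKP2 was at 41.3 ± 1.81 and 41.9 ± 0.809 CPM (0.00 ± 0.06, adjusted p = 0.981). The lines differed in this response by -1.495 ± 0.07 (edgeR interaction contrast, adjusted p = 1.03e-29). The kinase PIM1 (-0.39 ± 0.06), the MYC stabilizer CIP2A, listed as KIAA1524 (-0.38 ± 0.06), and the deubiquitinase USP36 (-0.26 ± 0.06) also fell in H226. In ACHN the ligase HUWE1 (-0.25 ± 0.05), KIAA1524 (-0.20 ± 0.05) and AURKA (-0.14 ± 0.05) fell. The AURKA call was lost in 9 of 12 alternatives, and without ACHN SWTX-143 replicate 1 KIAA1524 was not called either (edgeR adjusted p = 0.0685), which left 1 gene, HUWE1. FBXW7, the ligase that marks phosphorylated MYC for decay, was not called in either line, at -0.11 ± 0.08 and -0.07 ± 0.08.

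Of 17 tested genes of the SIN3 corepressor, which the MXD proteins, MXI1 and MNT recruit, 2 fell and 3 rose in H226 and 1 fell in ACHN, with medians of 0.02 and -0.00. Of all genes, 21.6% fell and 19% rose in H226 and 9.37% fell in ACHN. DESeq2 called 3 of the 17 in H226, without BRMS1 (adjusted p = 0.0592). In H226 the deacetylase HDAC2 (-0.31 ± 0.05) and BRMS1 (-0.20 ± 0.06) fell, and ARID4A (0.33 ± 0.08) and HDAC1 (0.17 ± 0.05) rose, HDAC1 not without H226 SWTX-143 replicate 2 (adjusted p = 0.0507). In ACHN the gene that fell was ING1 (-0.43 ± 0.10), which overlaps CARS2.

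MGA's complex PRC1.6 had 5 of 14 genes lower and 4 higher in H226 (median -0.09), and 1 higher in ACHN (median -0.00). Of all genes, 21.6% were lower and 19% higher in H226, and 8.43% higher in ACHN. The ACHN count was 2 without ACHN SWTX-143 replicate 2 (1 lower and 1 higher), and 2 higher with upper-quartile scaling or library size alone. CBX1 (-0.32 ± 0.05), TFDP1 (-0.30 ± 0.04) and WDR5 (-0.31 ± 0.05) fell in H226. TFDP2, a dimer partner of E2F6, rose in both lines (0.36 ± 0.08 in H226 and 0.31 ± 0.07 in ACHN). The difference contrast called 6 of 14 lower in H226 and 1 higher, beside 9.7% and 5.89% of all genes. It called 4 lower and 0 higher with DESeq2 and without ACHN SWTX-143 replicate 2 or H226 SWTX-143 replicate 2, and the ubiquitin ligase gene RNF2, 1 of the 6, lost its call in 15 of 18 alternatives. Of 14 germline genes that this complex silences, 3 passed the low-count filter in H226 and 4 in ACHN. STAG3, a meiotic cohesin gene, was at 4.83 ± 0.244 CPM and then at 6.41 ± 0.292 CPM in H226 (0.40 ± 0.16, edgeR adjusted p = 0.0418), a call lost in 8 of 12 alternatives, and it overlaps PVRIG. In ACHN 0 of 4 were called by edgeR and 0 of 2 by DESeq2, with STAG3 at an unadjusted p of 0.0322 (0.69 ± 0.31); without ACHN SWTX-143 replicate 1 STAG3 was called there (0.98, edgeR adjusted p = 0.0300).

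The targets of MondoA and of its relative ChREBP rose in part. TXNIP, the arrestin-like brake on glucose uptake, went from 175 ± 8.07 to 349 ± 24.96 CPM in H226 (log2 fold change 0.98 ± 0.05, edgeR adjusted p = 1.04e-22). In ACHN it went from 142.7 ± 8.77 to 239 ± 11.3 CPM (0.73 ± 0.04, adjusted p = 3.39e-19). The rise was larger in H226 by 0.25 ± 0.07 (edgeR interaction contrast, adjusted p = 0.00731), a call lost without ACHN DMSO replicate 3 (adjusted p = 0.0510). ARRDC4, a related arrestin, rose from 35.3 ± 3.70 to 48.7 ± 6.66 CPM in H226 (0.45 ± 0.09, adjusted p = 0.000700) and from 8.76 ± 0.700 to 11.6 ± 0.354 CPM in ACHN (0.39 ± 0.12, adjusted p = 0.0138; 0.123 by DESeq2). The ACHN call was also lost without DMSO replicate 1 (edgeR adjusted p = 0.0746) or SWTX-143 replicate 1 (0.0591). KLF10 rose in H226 from 44.8 ± 3.72 to 69.6 ± 4.62 CPM (0.62 ± 0.06) and was not called in ACHN (0.12 ± 0.05), with a difference of 0.49 ± 0.08. In ACHN it was called higher with upper-quartile scaling (edgeR adjusted p = 0.0325), library size alone (0.0255) or without SWTX-143 replicate 2 (0.0418). HK2, hexokinase, fell in ACHN from 72.8 ± 1.88 to 51.6 ± 2.76 CPM (-0.51 ± 0.06) and was not called in H226 (-0.06 ± 0.07), with a difference of 0.45 ± 0.09 (adjusted p = 0.000152). PFKFB3 and PKLR were not called in either line, and PKLR shares exon bases with HCN3. In all, 3 of 6 rose in H226, and 2 rose and 1 fell in ACHN. Of all genes, 19% rose in H226, and 8.43% rose and 9.37% fell in ACHN.

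The partner that MLXIP needs went the other way. MLX was at 52.0 ± 3.69 and 45.2 ± 0.932 CPM in H226 and at 72.0 ± 1.86 and 63.5 ± 0.505 CPM in ACHN. It fell by 0.21 ± 0.06 in H226 (edgeR, adjusted p = 0.00503; 0.0582 by DESeq2 and 0.0550 without DMSO replicate 1) and by 0.20 ± 0.05 in ACHN (adjusted p = 0.00529). MLX shares 770 exon bases with PSMC3IP on the opposite strand, which fell in H226 (-0.49 ± 0.09, adjusted p = 8.64e-06), so the H226 value is uncertain. MLXIPL, which encodes ChREBP, was at 0.544 to 1.02 CPM as group means and was not tested.

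**Figure D4:**
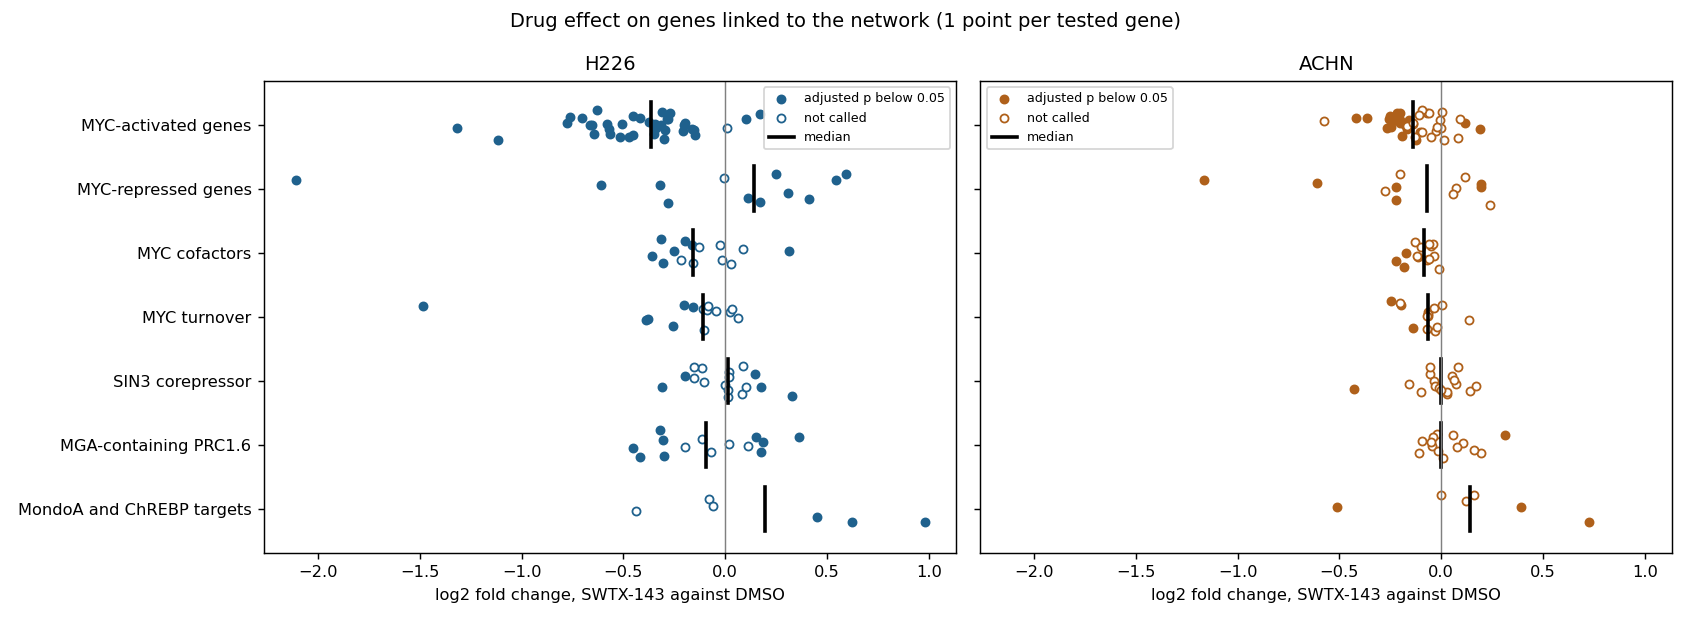
Log2 fold change, SWTX-143 against DMSO, of genes linked to the network, 1 point per tested gene, in H226 (left) and ACHN (right); filled points had an adjusted p under 0.05 and black ticks are list medians. MYC-activated genes lie mostly left of 0, with medians of -0.36 and -0.14, while SIN3 genes have medians of 0.02 and -0.00.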

How the data were processed

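The deposited values were raw counts per gene symbol, 1 table per line, as the authors made them, with only whole numbers. Reads were aligned to hg19, also called GRCh37, per the submitters' processing notes, which list STAR 2.6.1d beside cutadapt and FastQC. Neither the program that counted reads nor its strand setting or annotation is given in the sources used here. Counts were tested with edgeR 4.0.16 in R 4.3.3 (filterByExpr, TMM, robust quasi-likelihood F tests, Benjamini-Hochberg adjustment over all genes tested, call at 0.05). Each line was fitted alone. The difference between lines and the line contrasts used 1 fit of all 12 libraries. SE were the absolute log2 fold change over the square root of F. CPM used TMM factors over all 12 libraries (0.933 to 1.07). Transcript lengths and overlaps came from GENCODE 29 by symbol, on GRCh38, and no coordinate of the count tables was used. The tests were tried on simulated counts first, with the same spread for every gene and changes only in well-counted genes of treated H226. That trial does not cover genes with as few counts as MYCN. DESeq2 1.42.0, other scalings, no low-count filter, a replicate block and each left-out library were the alternatives.

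The members and gene lists were chosen with earlier results of these data known. Named genes were all members, every other network gene and MondoA target, the response check genes, up to 4 genes of each other list with the smallest p in each line, and the 3 genes most correlated (log2 of CPM + 0.5) with MYC, MXD1, MXD4 and MXI1. CCND2, LDHA, UBTF, FBXW7, CDKN2B in the difference contrast and SKP2 in ACHN were named after their values were seen, as were the genes that overlap named ones. Intervals for pooled counts and floors of 3 counts cover counting error only.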

Additional observations from a re-analysis of the deposited data

Results flagged for a closer look

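The drug effect of 2 members differed between the lines by a test of the difference itself, the edgeR interaction contrast over 12 libraries. That was 2 of 10 members tested, against 15.6% of all 14664 genes tested. For MYC the effect in H226 minus that in ACHN was -0.39 ± 0.07 (SE, log2; adjusted p = 8.72e-06), from -0.45 in H226 and -0.06 in ACHN. For MXD4 it was 0.36 ± 0.11 (adjusted p = 0.0174), from 0.84 and 0.48. The MXD4 call was lost without ACHN DMSO replicate 3 (edgeR adjusted p = 0.142), ACHN SWTX-143 replicate 2 (0.0699) or ACHN SWTX-143 replicate 3 (0.0800). The MXD4 rise was in the same direction in both lines, from a DMSO level that was 4.16-fold higher in H226.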

How the results depend on the processing

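MYC and MXD4 in H226 and MXD4 and MLXIP in ACHN kept their calls under all 12 alternatives tried for each line. The number of members called in H226, 4, was 2 with DESeq2 (MYC and MXD4) and 2 to 5 with 1 library left out, lowest without H226 DMSO replicate 2. The difference contrast called 2 members, and 1 to 2 with a library left out: only MYC was called without ACHN DMSO replicate 3, ACHN SWTX-143 replicate 2 or ACHN SWTX-143 replicate 3. Over all genes, DESeq2 called 1403 in ACHN (against 2401) and 1491 in the difference contrast (against 2286). The split of H226 calls, 2919 lower and 2567 higher, was 2324 and 3283 with upper-quartile scaling. In ACHN, 1264 lower and 1137 higher became 1028 and 1450, or 977 and 1537 with library size alone. In the difference contrast, 1423 lower and 863 higher became 1045 and 1159 with upper-quartile scaling. Its split was 832 to 1006 lower and 948 to 1140 higher with an H226 library left out. The excess of lower calls stayed with DESeq2 (847 and 644) and with any ACHN library left out. The labels do not say whether a replicate number pairs libraries. Same-numbered DMSO and treated libraries deviated with correlations of -0.03, 0.06 and 0.03 in H226 and -0.06, -0.08 and -0.02 in ACHN. With 3 libraries a group, these values cannot tell whether the libraries were paired. A replicate block called 5 members in H226 (MLXIP added, adjusted p = 0.0283), 2 in ACHN, 2 in the difference contrast and 8 in each line contrast, and 5744, 2146 and 2328 of all genes in the first 3 of these. Of 407 member drug effects refitted, 389 stayed on their side of the threshold, 11 lost a call and 7 gained one; no called effect changed sign.

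The log2 activator to repressor balance without length was -0.64 and -0.72 in ACHN (DMSO, SWTX-143) and -0.94 and -1.61 in H226. With the longest transcript it was 0.079, 0.018, -0.36 and -0.97 in the same order. Without MGA it was 0.75 and 0.66 in ACHN and 0.30 in H226 under DMSO. With 1 library left out it ran from 0.54 to 0.62, 0.47 to 0.56, 0.18 to 0.24 and -0.46 to -0.38. The difference between treatments was -0.60 to -0.67 in H226 and -0.06 to -0.09 in ACHN over these alternatives, and -0.59 to -0.68 and -0.02 to -0.12 with a library left out. With library size alone, which moved the median line contrast by -0.16 under DMSO and -0.14 under SWTX-143, signs turned for HDAC1 (-0.14) and JUP (-0.14) under DMSO, and for MXD3 (-0.021), AMOTL2 (-0.033), TFDP1 (-0.14) and GADD45A (-0.022) under SWTX-143. The causes of these moves were not tested, other than the scaling shift given. With 3 libraries a group and totals of 9690980 to 11262663 counts, MYCN and the germline genes lay near the detection floor. The calls of MXD3 and MXI1 in H226 were each lost in some of the alternatives.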
